A study of Mus musculus with 81 samples.

Results

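The 45 genes described here code for proteins that copy DNA and that guard and repair it in S phase. They are the genes of a fixed list, found by symbol among the 24391 gene symbols of the count table, and all 45 had enough counts to be tested in each of 5 RNA sequencing experiments. The cells were a mouse hybridoma line of mature T cells, in which RBPJ, the DNA-binding factor of the Notch pathway, or the pathway itself was perturbed. By role, the list holds 6 helicase subunits (Mcm2 to Mcm7), 2 licensing factors (Cdc6 and Cdt1) and 6 genes of helicase activation (Mcm10, Cdc45 and Gins1 to Gins4). It also holds 6 genes of the sliding clamp and its loader (Pcna and Rfc1 to Rfc5), 6 of DNA polymerases and primase (Pola1, Pola2, Pold1, Pole, Prim1 and Prim2) and 4 of nucleotide supply (Rrm1, Rrm2, Tyms and Tk1). Fen1 and Lig1 join Okazaki fragments, Rpa1 and Rpa2 cover single-stranded DNA, and E2f1, E2f2, Ccne1 and Ccne2 regulate entry into S phase. The remaining members are 6 checkpoint and repair genes (Chek1, Rmi2, Blm, Brca1, Brca2 and Exo1) and Uhrf1, which keeps DNA methylation through replication.

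The BioNICD1 experiment holds 4 groups of 3 libraries: RBPJ-depleted cells with BioNICD1, a biotin-tagged active Notch1 intracellular domain brought in by infection, RBPJ-depleted cells with the Biocontrol vector, control cells with BioNICD1, and control cells with Biocontrol. The GSI experiment sets 2 libraries treated with DAPT, a gamma-secretase inhibitor (GSI), at 20 µg/ml for 24 h against 2 libraries given DMSO. The KYOT2 experiment sets GFP-KYOT2 WT, an RBPJ-binding protein, beside GFP-KYOT2 WWAA, a mutant that per the labels is defective in contacting RBPJ, and GFP alone, with 3 libraries each. The NICD1-ER experiment follows a Notch1 intracellular domain fused to the estrogen receptor after 1 µM 4-hydroxytamoxifen (4-OHT) for 4, 8 or 24 h, against ethanol for 24 h. The labels list 3 replicates of each of its groups. No count column matched replicate 1 of the ethanol group or of the 24 h 4-OHT group, so 2 libraries stand for each. The depletion experiment sets CRISPR lines 2-12 and 2-14, depleted of RBPJ, against a control line, with 2 libraries each. The labels do not say which depleted line received BioNICD1 or whether a line is 1 clone, and all introduced factors were overexpressed. They also do not say that replicates were separate cultures, so the p-values measure the spread between these libraries, which may be technical.

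In a dividing cell the helicase ring is loaded on origins in G1 by Cdc6 and Cdt1, and it is switched on at the start of S phase by Mcm10, Cdc45 and the GINS proteins. Cyclin E and the E2F factors drive this step, and most of the listed genes are textbook targets of E2F, which binds short GC-rich words near start sites. In T cells these genes are silent at rest and are switched on together when a cell is stimulated to divide, while genes of mitosis follow later in the cycle. The cleaved intracellular domain of Notch1 binds RBPJ and turns it from a repressor into an activator, and gamma-secretase performs that cleavage.

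Promoter sequences (RefSeq, GRCm38.p6, 250 bases before to 50 after a start site) were at hand for 35 of the 45 members in 41 entries, and not for Mcm4, Gins1, Gins2, Gins4, Rfc2, Pole, Prim2, Ccne2, Rmi2 and Exo1. The E2F words TTTCCCGC, TTTGGCGC, TTTCGCGC and TTTGCCGC were searched on both strands, and words on opposite strands can share bases, as upstream of Mcm6. They were present in 14 of the 41 entries (34.1%), against 2.26% of all 32851 promoter entries and 4% of the entries of genes tested in the BioNICD1 experiment. The sequences shown carry such words, in capitals, in genes that code for the helicase, its loading and its activation, for primer synthesis, for repair and for Uhrf1. Each line gives 30 bases, read 5′ to 3′ on the gene's strand.
Cdc6, chr11:98908002-98908031, plus strand: gccggtggagaGCGGGAAAtcgcctggggt
Mcm5, chr8:75109345-75109374, plus strand: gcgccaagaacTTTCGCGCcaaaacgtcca
Mcm6, chr1:128359734-128359763, minus strand: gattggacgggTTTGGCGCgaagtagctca
Mcm6, chr1:128359797-128359826, minus strand: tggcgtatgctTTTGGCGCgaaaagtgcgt
Mcm7, chr5:138172030-138172059, minus strand: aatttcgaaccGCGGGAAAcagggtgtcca
Gins3, chr8:95633507-95633536, plus strand: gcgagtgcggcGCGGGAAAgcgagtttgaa
Pola1, chrX:93632275-93632304, minus strand: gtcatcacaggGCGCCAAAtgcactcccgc
Brca2, chr5:150522442-150522471, plus strand: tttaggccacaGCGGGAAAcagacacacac
Uhrf1, chr17:56304117-56304146, plus strand: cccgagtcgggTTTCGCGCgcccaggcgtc

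A longer stretch is shown for Rrm2, the small subunit of ribonucleotide reductase, and for Uhrf1, 2 of the members that moved most with BioNICD1. It holds the 150 bases before the outermost annotated start of each gene, with the CCAAT word in capitals. Ccne1 and Pold1 were also among the members that moved most. Their matching 150 bases hold 0 CCAAT words and are not shown. Uhrf1 has a pair of entries with different start sites, and its E2F word printed above belongs to the inner one.
Rrm2, chr12:24708104-24708253, plus strand: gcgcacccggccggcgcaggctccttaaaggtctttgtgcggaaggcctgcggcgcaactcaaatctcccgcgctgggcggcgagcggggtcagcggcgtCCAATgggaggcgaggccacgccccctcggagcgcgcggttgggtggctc
Uhrf1, chr17:56303187-56303336, plus strand: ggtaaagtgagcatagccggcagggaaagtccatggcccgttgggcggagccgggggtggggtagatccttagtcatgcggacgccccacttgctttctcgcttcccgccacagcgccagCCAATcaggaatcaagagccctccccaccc
Over the 300-base windows, CCAAT was present in 58.5% of the member entries, in 38.3% of the entries of tested genes and in 37.4% of all entries. The CHR words TTTGAA and TTCGAA, which mark many mitotic promoters, were present in 17.1% of the member entries, between the 14.2% of entries of genes tested in the BioNICD1 experiment and the 19.2% of all entries. TGGGAA, the core of the RBPJ word, was present in 31.7% of the member entries, against 22.7% and 25.6%. A match describes these letters only and is not a bound site.

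Library totals ran from 2377028 to 14244209 counts over the 41 libraries used, and a floor of 3 counts corresponds to 0.211 to 1.26 counts scaled to the library total (CPM), which covers counting error only. Levels are given as CPM after TMM scaling, except the sums and medians of genes of cell types, which are scaled to the library total only. In the NICD1-ER experiment, replicates 1 and 2 of the 4 h group, and likewise of the 8 h group, agreed within sampling noise over genes, so their counts were added up and each pair was counted as 1 sample. The pairs at 24 h of 4-OHT and with GSI agreed as closely, but each pair is the whole of its group, so it was kept apart and the fit with added counts is given beside the result. All 10 T cell genes checked, among them Cd3e and Lck, had counts in each experiment and summed to 876.5 to 2406 CPM per library. Their lowest gene median was 1.52 CPM in the KYOT2 experiment. In the BioNICD1 experiment it was 0.307 CPM, at the floor, where 3 counts correspond to 0.297 to 0.370 CPM. The B cell, fibroblast, myeloid and erythroid genes checked summed to at most 0.580, 1.20, 7.21 and 14.98 CPM. Rbpj averaged 44.3 ± 11.6 CPM in lines 2-12 and 2-14 (SD, n = 4), against 157 ± 34.4 CPM in the control line (SD, n = 2). Rbpj averaged 19.3 ± 0.607 CPM in depleted cells with Biocontrol, against 90.9 ± 2.86 CPM in control cells with Biocontrol (SD, n = 3 each). The Notch target Dtx1 averaged 249 CPM in control cells with BioNICD1, against 1.67 CPM in control cells with Biocontrol, and 0.583 CPM in depleted cells with BioNICD1, against 0.700 CPM in depleted cells with Biocontrol.

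With BioNICD1 in control cells, the replication genes rose together. At an adjusted p under 0.05 (edgeR), 37 of the 45 members were higher and 0 lower with BioNICD1 than with Biocontrol, while 18.7% of all genes tested were called higher and 14.2% lower. The median member log2 fold change was 0.86, against 0.01 for all genes tested, and 44 of the 45 were above 0. The summed level of the members was 6235 to 6601 CPM with BioNICD1 and 3459 to 3593 CPM with Biocontrol. In bulk RNA, more cells in S phase and more RNA of these genes per cell cannot be told apart, nor can fewer cells and less RNA per cell where the members were lower. Beside this change, the T cell genes, scaled to the library total without TMM, summed to 2117 to 2406 CPM with BioNICD1 and to 1505 to 1655 CPM with Biocontrol. The 4 myeloid genes summed to 6.36 to 7.21 CPM with BioNICD1 and to 2.18 to 3.90 CPM with Biocontrol, and the part of either list in the result was not tested.

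The largest change was in nucleotide supply. Tk1, thymidine kinase of the salvage pathway, had 26.2, 30.4 and 34.0 CPM in control cells with BioNICD1, against 5.83, 5.64 and 7.66 CPM in control cells with Biocontrol. The groups lay far apart, and the log2 fold change was 2.24 (SE 0.21, adjusted p = 4.7e-06). Rrm2 had 400, 411 and 424 CPM with BioNICD1, against 151, 163 and 164 CPM with Biocontrol. Its libraries did not overlap either, with a log2 fold change of 1.37 (SE 0.089, adjusted p = 1.6e-07). Tyms, thymidylate synthase, rose by a log2 fold change of 1.03, so that 3 of the 4 nucleotide genes rose. Rrm1, the large reductase subunit, stood at 0.34 and did not pass.

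Licensing factors and the helicase rose without exception. Cdc6, the loader of the helicase ring, had 121, 122 and 127 CPM with BioNICD1, against 36.5, 38.9 and 43.7 CPM with Biocontrol. The BioNICD1 libraries agreed within a few CPM and all stood above the Biocontrol ones, with a log2 fold change of 1.64 (SE 0.083, adjusted p = 1.6e-08). Cdt1, the other loader, had 28.1, 38.8 and 31.1 CPM with BioNICD1, against 14.6, 16.2 and 16.2 CPM with Biocontrol, with a log2 fold change of 1.06 (SE 0.25, adjusted p = 0.0064). All 6 helicase subunits rose, led by Mcm7 at 1.19 (SE 0.077) and Mcm4 at 1.18 (SE 0.084). Mcm4 had 310, 303 and 313 CPM with BioNICD1, against 138, 130 and 140 CPM with Biocontrol.

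Regulators of S phase entry changed as well. Ccne1, cyclin E1, had 70.1, 72.6 and 72.8 CPM with BioNICD1, against 23.7, 25.8 and 27.2 CPM with Biocontrol, a log2 fold change of 1.49 (SE 0.12, adjusted p = 1.6e-06). The libraries of each group were close together and far from the other group. E2f1 and E2f2, activating E2F factors, rose by log2 fold changes of 0.88 and 0.81, and Ccne2, cyclin E2, stood at 0.84 with an adjusted p of 0.053. Uhrf1 had 310, 323 and 324 CPM with BioNICD1, against 109, 107 and 114 CPM with Biocontrol, a log2 fold change of 1.54 (SE 0.086, adjusted p = 3.8e-08), again with no overlap.

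All 6 polymerase and primase genes rose, led by Pold1, the catalytic subunit of polymerase delta. Pold1 had 43.2, 52.8 and 42.3 CPM with BioNICD1, against 20.8, 18.9 and 18.4 CPM with Biocontrol (log2 fold change 1.25, SE 0.23, adjusted p = 0.0011). Helicase activation followed for 4 of 6 genes, with Gins2 at 1.07 and Mcm10 at 1.03, while Gins3 at 0.44 and Gins4 at 0.26 did not pass. Of the clamp and its loader 4 of 6 rose, with Pcna, the clamp, at 0.73 and Rfc5 at 0.90, while Rfc4 at 0.11 and Rfc1 at -0.02 did not pass. Fen1, the flap nuclease, rose by 1.12, Lig1 passed as well, and Rpa2 rose by 0.95 and Rpa1 also passed. Of the checkpoint and repair genes 4 of 6 rose. Rmi2, a subunit of the BLM dissolvasome, had 10.1, 10.6 and 8.71 CPM with BioNICD1, against 3.04, 3.34 and 3.21 CPM with Biocontrol (log2 fold change 1.61, SE 0.25, adjusted p = 0.00039). Exo1, a resection nuclease, rose by 1.21 and Chek1, the S phase checkpoint kinase, by 1.01, while the helicase Blm stood at 0.41 and Brca2, a factor of homologous recombination, at 0.03 without passing.

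Other genes of the same processes, from lists chosen with earlier results of these data known, moved the same way as counts. Of 33 other replication factors 20 rose and 3 fell, with Dscc1, a clamp loader subunit, at 1.69 and the nuclease and helicase Dna2 at 1.48, against Recql4 at -1.23. Of 29 other repair and checkpoint genes 18 rose and 0 fell, led by Ung, uracil glycosylase, at 1.60, and of 10 genes of replication-coupled chromatin 7 rose and 0 fell, led by the histone chaperone subunit Chaf1b at 1.36. Of 15 E2F and pocket protein genes 7 rose and 3 fell, with E2f8 at 1.15 and the cyclin kinase inhibitor Cdkn1b at -0.81. Of 25 mitosis genes, by contrast in sign, 1 rose and 13 fell, with a median of -0.55; Bub1b of the spindle checkpoint stood at -1.32 and the spindle factor Tpx2 at -1.11.

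**Figure D1:**
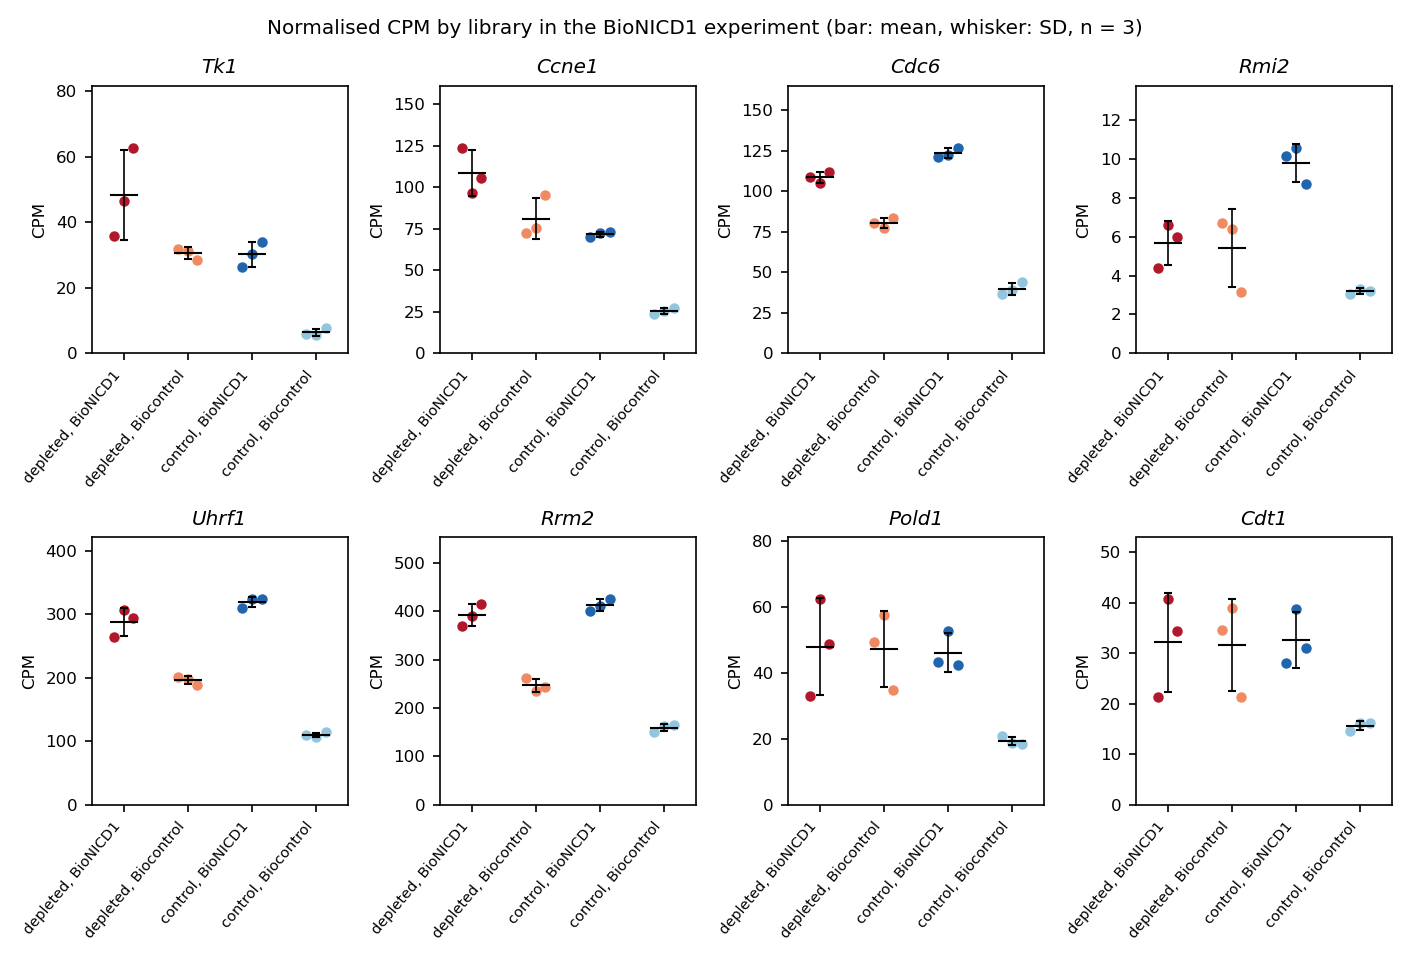
Levels of 8 members in CPM after TMM scaling on the vertical axes, with 1 panel per gene, points for the 3 libraries of each group, a bar for their mean, whiskers for their SD and the group as the horizontal axis. For Cdc6, Uhrf1 and Rrm2 the control cells with Biocontrol sit lowest, at 36.5 to 43.7, 107 to 114 and 151 to 164 CPM, with no overlap with the other 3 groups.

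In RBPJ-depleted cells the replication genes also stood higher with BioNICD1, by less, and the call rests on the fit. In the fit of all 4 groups 29 of the 45 members were higher and 0 lower with BioNICD1 than with Biocontrol, against 2.7% of all genes tested called higher and 1.45% lower. The median member log2 fold change was 0.55, against -0.01 for all genes tested, and the summed member level was 6375 to 7358 CPM with BioNICD1 and 4300 to 4899 CPM with Biocontrol. When the 2 depleted groups were fitted alone, 0 of the 45 members passed in edgeR, where 4 genes (0.0369%) passed among all genes tested, and DESeq2 on all 4 groups called 35 members against 6.77% of all genes. Replicate 1 of the depleted cells with BioNICD1 and replicate 3 of the depleted cells with Biocontrol lay farthest from their group means. Without these 2 libraries 39 members were higher, against 11.2% of all genes called. With these libraries out and the 2 depleted groups alone, a fit chosen after seeing the data, 33 members were higher, and 1002 of 10917 genes were called. Leaving out the libraries farthest from their group means lowers the spread within groups by that choice. The added calls in these fits are therefore no further support for the change. Leaving out replicate 1 or replicate 2 of the depleted cells with Biocontrol left 14 and 17 calls. How many of all genes passed in these fits is not given, so the drop is not shown to be particular to the members.

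Pola1, the catalytic subunit of polymerase alpha, changed most in depleted cells. It had 119, 77.0 and 88.8 CPM with BioNICD1, against 39.6, 37.4 and 55.5 CPM with Biocontrol, so the groups did not overlap but the libraries within each were far apart. The log2 fold change was 1.11 (SE 0.17, adjusted p = 0.0038). Tyms had 122, 113 and 125 CPM with BioNICD1, against 76.6, 64.4 and 70.3 CPM with Biocontrol, a tighter pair of groups with a log2 fold change of 0.77 (SE 0.093, adjusted p = 0.0015). Rrm2 rose by 0.66 (SE 0.087, adjusted p = 0.0022), Cdc45, a helicase activator, by 0.82 (SE 0.16, adjusted p = 0.013), and Rfc4 by 0.75 (SE 0.14, adjusted p = 0.010). By role, 5 of 6 helicase genes, 4 of 6 polymerase and primase genes, 4 of 6 checkpoint and repair genes and 3 of 4 nucleotide genes rose.

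Several members that moved most in control cells did not pass here. Tk1 had 35.7, 46.4 and 62.7 CPM with BioNICD1, against 31.9, 31.1 and 28.5 CPM with Biocontrol, a log2 fold change of 0.66 with an adjusted p of 0.058. The groups did not overlap, but the BioNICD1 libraries were spread widely. Cdt1 stood at 0.02, Pold1 at 0.02 and Rmi2 at 0.05, each with libraries of the groups intermixed. Ccne1 stood at 0.42, Ccne2 at 0.80 and Lig1, the ligase, at 0.77 without passing. Beside the members, 19 of 25 mitosis genes rose and 0 fell, with a median of 0.66, and the summed T cell genes stood at 1213 to 1564 CPM with BioNICD1 and at 1408 to 1510 CPM with Biocontrol. The myeloid genes summed to 2.87 to 3.98 CPM with BioNICD1 and to 1.97 to 2.82 CPM with Biocontrol, and the part of these lists in the result was not tested.

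The difference between the BioNICD1 changes in depleted and in control cells was tested as an interaction. It was called for 19 of the 45 members, 17 lower and 2 higher in depleted cells, against 22.5% of all genes tested called in either direction, 13.3% lower and 9.17% higher. The median member difference was -0.34, against -0.03 for all genes tested. Cdc6 had the best separated difference, at -1.20 (SE 0.11, adjusted p = 1.4e-05). It had 109, 105 and 112 CPM in depleted cells with BioNICD1 against 80.1, 77.5 and 83.3 CPM in depleted cells with Biocontrol, a far narrower gap than in control cells. Tk1 differed by -1.58 (SE 0.28, adjusted p = 0.0017), Rmi2 by -1.56 (SE 0.35, adjusted p = 0.0086) and Pold1 by -1.23 (SE 0.31, adjusted p = 0.015). Ccne1, Cdt1 and Uhrf1 followed at -1.07, -1.04 and -0.98, the Cdt1 difference with an adjusted p of 0.048. Lesser differences were those of Mcm4, Mcm5, Mcm6, Mcm7, Rrm2, Fen1, Exo1, Rpa2, Pola2 and Pole, from -0.71 to -0.35. Rfc4 at 0.64 and Brca2 at 0.56 differed the other way. Brca2 had 69.9, 68.6 and 62.0 CPM with BioNICD1 and 41.1, 40.4 and 52.3 CPM with Biocontrol in depleted cells, while in control cells it had 64.9, 60.8 and 68.7 CPM with BioNICD1 and 60.9, 66.4 and 63.0 CPM with Biocontrol.

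Set by vector, the replication genes were higher in depleted than in control cells with Biocontrol. In the separate depletion experiment 0 members were called in the fit without pairing, and the median was -0.01. Across the 45 members, 23 had the same sign in both depletion comparisons, with Pearson's r at 0.25. With Biocontrol, 24 members were higher and 2 lower in depleted than in control cells, against 21.7% of all genes tested called higher and 20.3% lower. The median member log2 fold change was 0.46, and 0.38 without the 2 farthest libraries, against 0.02 for all genes tested. This comparison and that of BioNICD1 in control cells use the same 3 control libraries with Biocontrol, so their values stand side by side and are not independent. Tk1 had 31.9, 31.1 and 28.5 CPM in depleted cells, against 5.83, 5.64 and 7.66 CPM in control cells, a log2 fold change of 2.26 (SE 0.21, adjusted p = 4.2e-06) with no overlap. Ccne1 had 72.5, 75.6 and 95.4 CPM in depleted cells, against 23.7, 25.8 and 27.2 CPM in control cells, a log2 fold change of 1.67 (SE 0.12, adjusted p = 7.0e-07). Pold1 rose by 1.29 (SE 0.23, adjusted p = 0.00066), Ccne2 by 1.29 (SE 0.31, adjusted p = 0.0052), Cdt1 by 1.02 (SE 0.25, adjusted p = 0.0062) and Cdc6 by 1.02 (SE 0.083, adjusted p = 1.4e-06). Rmi2 passed at 0.78 (SE 0.27, adjusted p = 0.034), although 1 depleted library, at 3.13 CPM, stood within the control range of 3.04 to 3.34 CPM.

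Roles differed in their counts. With Biocontrol, 2 of 2 licensing genes, 3 of 4 nucleotide genes, 4 of 6 helicase genes and 4 of 6 polymerase and primase genes rose in depleted cells, while the 6 clamp and loader genes had a median of 0.06 and no call in either direction. Uhrf1 rose by 0.84. E2f2 fell, with 22.5, 22.9 and 28.8 CPM in depleted cells against 35.0, 35.0 and 35.1 CPM in control cells (log2 fold change -0.50), and Brca2 fell by 0.51 on the log2 scale. Of the 25 mitosis genes 2 rose and 14 fell, with a median of -0.46.

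Among cells that carried BioNICD1, depletion left the members near balance. Of the 45, 11 were higher and 4 lower in depleted than in control cells, against 18.5% of all genes tested called higher and 21.4% lower, and the median was -0.02. Leaving out replicate 2 of the control cells with BioNICD1 left 9 calls, and the calls over all genes in that fit are not given. Ccne2 had 209, 98.8 and 126 CPM in depleted cells, against 76.4, 51.0 and 55.5 CPM in control cells, a log2 fold change of 1.25 (SE 0.30, adjusted p = 0.0053); the highest depleted library was replicate 1, one of the 2 farthest. Lig1 at 0.70, Tk1 at 0.68, Ccne1 at 0.60, Gins3 at 0.52 and Rfc4 at 0.49 were also higher. E2f2 was lower, with 36.9, 33.7 and 32.1 CPM in depleted cells against 61.3, 58.8 and 64.1 CPM in control cells and no overlap (log2 fold change -0.84, SE 0.10, adjusted p = 3.3e-05). Rmi2 at -0.78, Rfc3 at -0.37 and Mcm6 at -0.33 were lower too, and Cdc6 at -0.18 and Uhrf1 at -0.15 did not pass. Of the 25 mitosis genes 18 rose and 0 fell here, with a median of 0.58. The summed T cell genes stood at 1213 to 1564 CPM in depleted and at 2117 to 2406 CPM in control cells with BioNICD1, and the myeloid genes at 2.87 to 3.98 CPM in depleted and at 6.36 to 7.21 CPM in control cells; their part in the result was not tested.

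**Figure D2:**
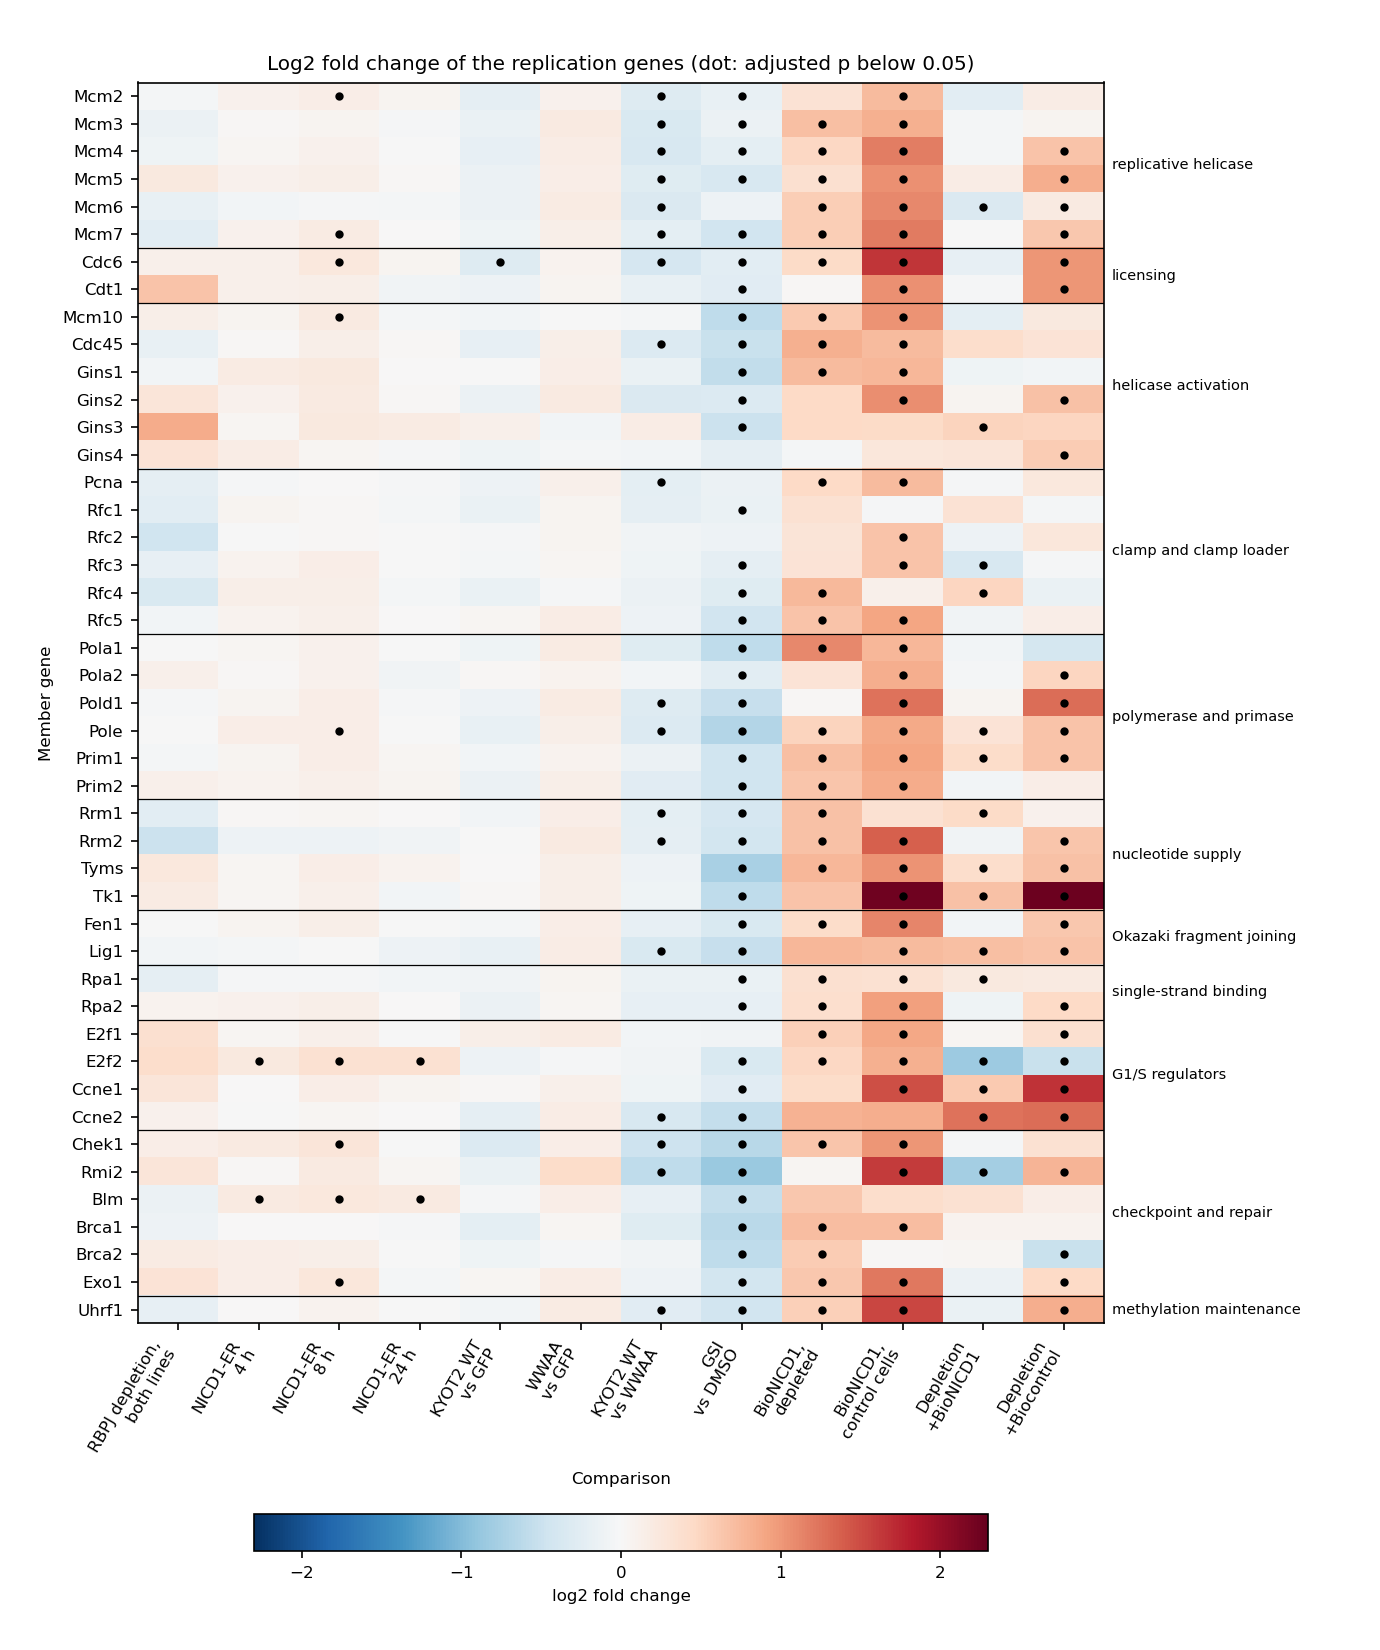
Log2 fold changes of the 45 members (rows, grouped by role) in 12 comparisons (columns), with the colour scale in log2 units and calls at an adjusted p under 0.05 marked. The column of BioNICD1 in control cells has 37 members called higher, and that of GSI has 40 called lower.

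Inhibition of gamma-secretase lowered the replication genes almost without exception. With GSI, 40 of the 45 members were lower and 0 higher than with DMSO, against 11.6% of all genes tested called lower and 9.16% higher. All 45 had a log2 fold change below 0, with a median of -0.42 against 0.00 for all genes tested. The summed member level was 4589 to 4621 CPM with GSI and 5848 to 5971 CPM with DMSO. The 2 GSI libraries agreed within sampling noise, so the p-values with GSI may rest on too small a spread. With their counts summed the GSI group holds 1 sample, and the member median was again -0.42. With the libraries apart DESeq2 called 24 members lower, against 5.93% of all genes called. The summed T cell genes stood at 1127 to 1154 CPM with GSI and at 1059 to 1138 CPM with DMSO. The Notch targets Hes1, Hey1 and Dtx1 had at most 1.12 CPM in any library of this experiment and were not tested.

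The checkpoint and repair genes led, with 6 of 6 lower. Rmi2 had 20.9 and 18.5 CPM with GSI, against 37.7 and 33.8 CPM with DMSO, a log2 fold change of -0.85 (SE 0.11, adjusted p = 3.8e-07). Chek1 had 36.7 and 37.9 CPM with GSI, against 55.0 and 60.6 CPM with DMSO, a log2 fold change of -0.64 (SE 0.081, adjusted p = 3.8e-07). In each gene both GSI libraries were below both DMSO libraries. Over all genes the GSI libraries differed by no more than sampling noise, so their closeness is not a measure of the spread between replicates. Brca1, a repair ubiquitin ligase, fell by 0.62 on the log2 scale (SE 0.047), Brca2 by 0.58 (SE 0.058) and Blm by 0.55 (SE 0.056).

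Nucleotide supply and the polymerases followed, with 4 of 4 and 6 of 6 lower. Tyms had 36.3 and 36.0 CPM with GSI, against 63.0 and 58.5 CPM with DMSO, a log2 fold change of -0.74 (SE 0.079, adjusted p = 1.3e-08). Pole, the catalytic subunit of polymerase epsilon, had 138 and 148 CPM with GSI, against 223 and 234 CPM with DMSO, a log2 fold change of -0.68 (SE 0.048, adjusted p = 2.2e-12). Tk1 had 46.1 and 48.3 CPM with GSI, against 73.8 and 68.6 CPM with DMSO (log2 fold change -0.59, SE 0.072, adjusted p = 2.0e-07). None of these groups overlapped. Pola1 fell by 0.58 and Pold1 by 0.53 on the log2 scale.

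Of the helicase 5 of 6 genes were lower, with Mcm7 at -0.44 and Mcm6 at -0.12 without passing. Helicase activation was lower for 5 of 6 genes, with Mcm10 at -0.58, Gins1 at -0.57 and Cdc45 at -0.51, and Gins4 at -0.21 did not pass. Both licensing genes, both Okazaki genes and both single-strand binding genes were lower, with Cdc6 at -0.23, Lig1 at -0.52 and Rpa2 at -0.18. Clamp and loader genes were lower for 4 of 6, with Rfc5 at -0.45, while Pcna at -0.13 and Rfc2 at -0.11 did not pass. Among regulators 3 of 4 were lower, with Ccne2 at -0.55, and E2f1 at -0.08 did not pass. Uhrf1 fell by 0.43 on the log2 scale.

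Genes outside the list fell alongside. All 25 mitosis genes were lower with GSI, with a median of -0.78 that lies below the member median of -0.42; the kinetochore gene Cenpf stood at -1.25 and Foxm1, the factor that drives mitotic genes, at -1.10. Of other replication factors 24 of 33 were lower and 0 higher, with the loader subunit Chtf18 at -0.98 and the origin factor Ticrr at -0.85. Of other repair genes 20 of 29 were lower and 1 higher, with the Fanconi genes Fancd2 at -1.32 and Fanci at -0.84. Replication-coupled chromatin genes were lower for 9 of 10, and E2F and pocket protein genes for 8 of 15, with E2f7 at -1.29 and E2f8 at -0.96.

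KYOT2 WT, set against the mutant WWAA, went with a smaller drop. Of the 45 members 18 were lower and 0 higher with WT than with WWAA, against 0.601% of all genes tested called lower and 1.26% higher. The median member log2 fold change was -0.21, against 0.00 for all genes tested, and 44 of 45 were below 0, with Gins3 at 0.17 the exception. The summed member level was 3630 to 3749 CPM with WT, 4280 to 4474 CPM with WWAA and 3903 to 4073 CPM with GFP. All 6 helicase genes were lower, from -0.36 for Mcm4 to -0.22 for Mcm7. When these 2 groups were fitted alone 11 members passed, as did 112 of the 11023 genes tested. Leaving out WT replicate 2, WT replicate 1, WWAA replicate 1 or WWAA replicate 2 left 7, 9, 10 and 10 members. How many of all genes passed in these fits is not given, so the drop is not shown to be particular to the members. Ribosomal Rn45s took 1.81 to 5.56% of all counts here, against at most 0.263% in the other experiments. Without this transcript in the fit 18 members were again lower and the median was -0.21.

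Cdc6 had 44.0, 46.1 and 44.5 CPM with WT, against 58.0, 59.0 and 58.4 CPM with WWAA and 53.1, 54.2 and 57.4 CPM with GFP. The WT libraries were the lowest, with a log2 fold change against WWAA of -0.38 (SE 0.052, adjusted p = 0.0015). Cdc6 was also the 1 member called against GFP, at -0.29 (SE 0.053, adjusted p = 0.015), where 0.888% of all genes tested were called in either direction. Leaving out any WT library, or GFP replicate 2 or 3, left 0 calls against GFP, and leaving out WWAA replicate 3 gave 4. For these fits the calls over all genes are not given. Rmi2 had 6.99, 5.93 and 7.16 CPM with WT, against 10.3, 9.52 and 10.1 CPM with WWAA and 6.45, 8.14 and 7.53 CPM with GFP. Here the WWAA libraries stood apart and WT overlapped GFP, with a log2 fold change of WT against WWAA of -0.58 (SE 0.13, adjusted p = 0.030). Chek1 had 22.8, 23.6 and 19.1 CPM with WT, against 28.6, 31.1 and 31.4 CPM with WWAA and 28.8, 28.4 and 25.04 CPM with GFP (WT against WWAA -0.47, SE 0.092, adjusted p = 0.016).

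The other members called against WWAA were Ccne2 at -0.36, Mcm3 and Lig1 at -0.35 each, Mcm6 at -0.33, Cdc45 at -0.32, Pole at -0.31, Mcm2 and Pold1 at -0.29, Mcm5 at -0.28, Uhrf1 at -0.26, Pcna at -0.23, and Rrm1 and Rrm2 at -0.22 and -0.21. WT against GFP had a member median of -0.11 with 37 of 45 below 0. WWAA against GFP had a member median of 0.13 with 39 of 45 above 0. In edgeR 0 members were called, where 20 had an unadjusted p under 0.05 and 0.0897% of all genes tested were called. DESeq2 called 1 member and 22 of 11150 genes. The GFP libraries serve both of these comparisons. Of the listed relatives, WT against WWAA lowered 2 of 33 other replication factors, among them the initiator kinase Cdc7 at -0.29, 2 of 29 repair genes and 2 of 10 chromatin genes, among them Dnmt1, the maintenance methyltransferase, at -0.31. No mitosis gene was among the calls, and the median of the 25 was -0.10.

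**Figure D3:**
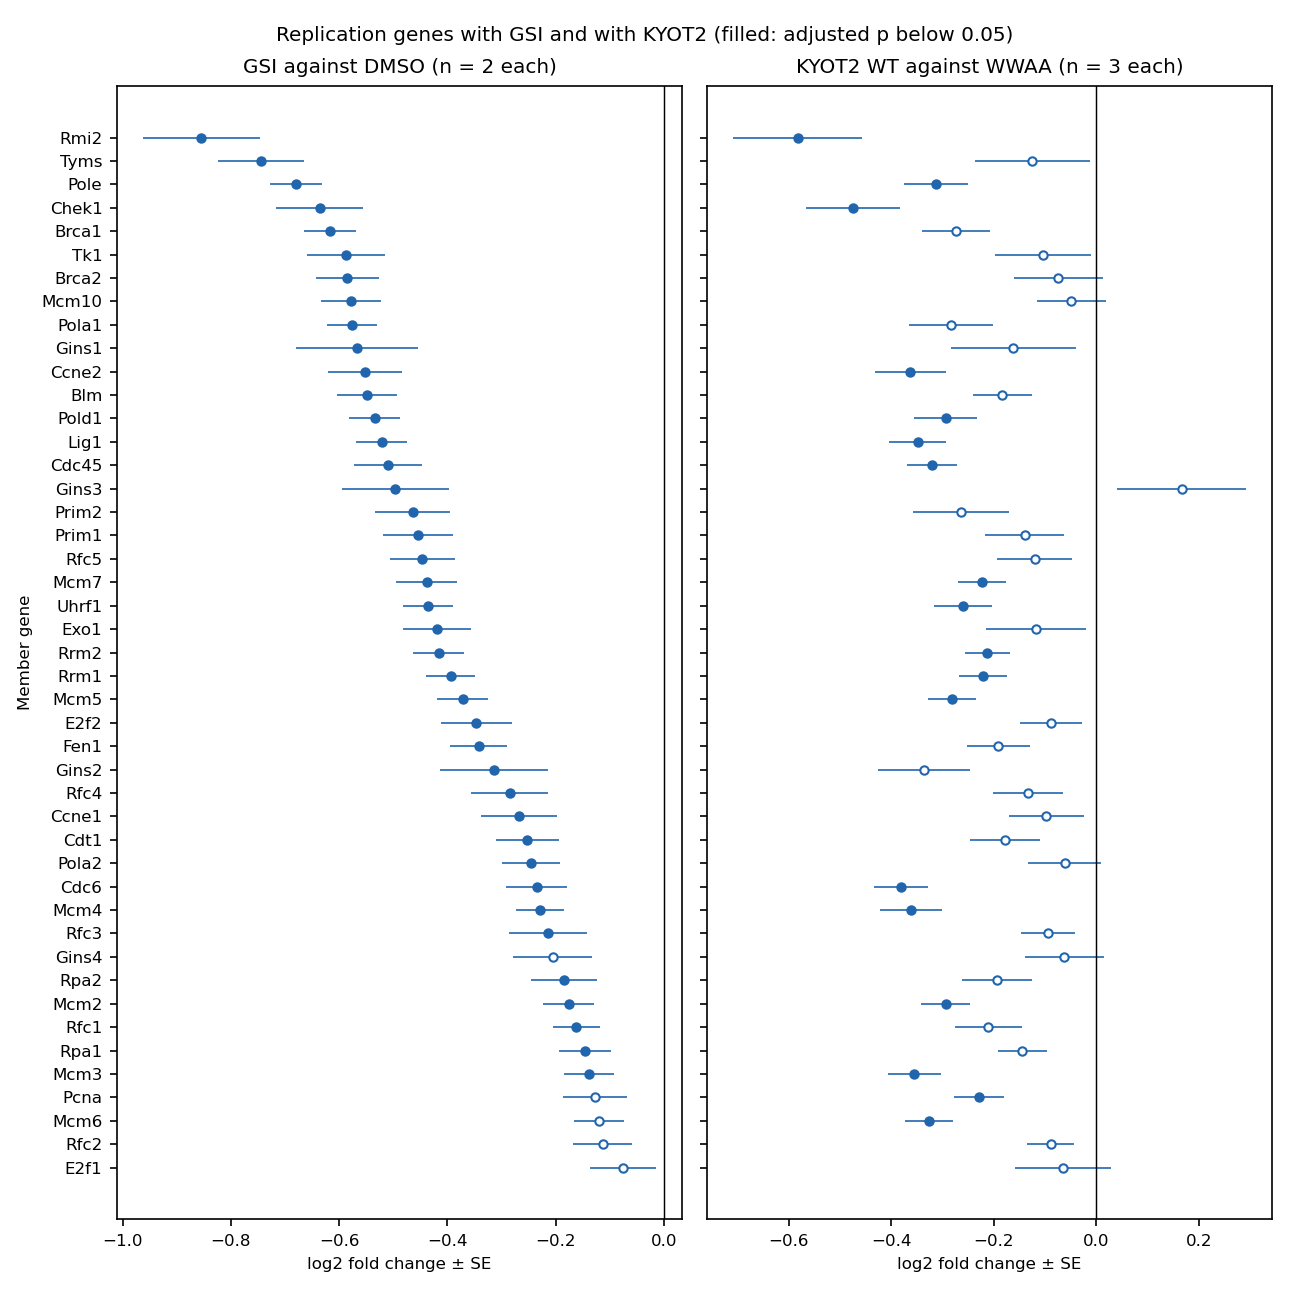
Log2 fold changes with standard errors (horizontal axis) of the 45 members for GSI against DMSO and for KYOT2 WT against WWAA. The members are in rows, ordered by their log2 fold change with GSI, with filled points for an adjusted p under 0.05. All 45 points lie below 0 with GSI and 44 of 45 with KYOT2 WT, where Gins3 lies at 0.17.

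In the NICD1-ER experiment the members moved little and most at 8 h. At 8 h of 4-OHT 9 of the 45 members were higher and 0 lower than with ethanol, against 5.06% of all genes tested called higher and 5.31% lower, and the median was 0.13 with 41 of 45 above 0. At 4 h 2 members were higher (3.16% of all genes tested were), and at 24 h 2 were (6.59% of all genes tested were). The 3 times share the ethanol libraries, of 24 h, so the earlier times differ from their control in hours as well as in 4-OHT. DESeq2 called 0 members at 4 h, 1 at 8 h and 1 at 24 h, and 229, 429 and 617 of 11808 genes. With the counts of the 2 libraries of 24 h added up, that group holds 1 sample, and the member median was 0.060 at 4 h and -0.006 at 24 h. The fits that follow each leave out 1 library. Their calls over all genes are not given, so a drop is not shown to be particular to the members. Leaving out ethanol replicate 3 or 8 h replicate 3 left 5 calls at 8 h. At 4 h, leaving out any library of the ethanol and 24 h groups, or 4 h replicate 2 or 3, left 0 or 1 call. At 24 h, leaving out any library of the ethanol and 24 h groups, or replicate 2 of the 4 h or 8 h group, left 1.

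E2f2 had 118 and 124 CPM with ethanol, 145 and 136 CPM at 4 h, 149 and 160 CPM at 8 h and 155 and 154 CPM at 24 h of 4-OHT. It was above the ethanol libraries at each time, with log2 fold changes of 0.23 (SE 0.056, adjusted p = 0.022), 0.34 (SE 0.055, adjusted p = 0.00049) and 0.35 (SE 0.058, adjusted p = 0.00049). Blm, with 138 and 139 CPM with ethanol, had 153 and 171 CPM at 4 h, 161 and 169 CPM at 8 h and 162 and 156 CPM at 24 h, and was the other member called at every time, at 0.21, 0.24 and 0.20. Cdc6 had 121 and 123 CPM with ethanol, 133 and 131 CPM at 4 h, 145 and 144 CPM at 8 h and 128 and 127 CPM at 24 h. The Cdc6 libraries were thus highest at 8 h, where Cdc6 was called against ethanol at 0.24 (SE 0.048, adjusted p = 0.0034). The 8 h level was not tested against 4 h or 24 h.

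Chek1 had 64.0 and 68.0 CPM with ethanol, 76.0 and 77.8 CPM at 4 h, 79.7 and 81.5 CPM at 8 h and 66.9 and 65.1 CPM at 24 h. Its 24 h libraries were back within the ethanol range, and only the 8 h change passed, at 0.28 (SE 0.062, adjusted p = 0.0069). Exo1 at 0.27, Mcm10 at 0.22, Mcm7 at 0.18, Mcm2 at 0.16 and Pole at 0.15 were the other members higher at 8 h. Set directly against 4 h, 24 h of 4-OHT gave 4 lower members and 0 higher, against 5.41% of all genes tested called lower and 8% higher: Chek1 at -0.21, Cdt1 at -0.20, Exo1 at -0.19 and Pole at -0.16. With the counts of the 2 libraries of 24 h summed, that group holds 1 sample, and the member median was -0.055, against -0.058 with them apart. DESeq2 called 0 members and 481 of 11808 genes, while 10 members had an unadjusted p under 0.05 in edgeR with the libraries apart. Leaving out either 24 h library also left 0, and leaving out 4 h replicate 3 left 2. Of other genes at 8 h, 11 of 33 replication factors, 6 of 29 repair genes and 8 of 25 mitosis genes were higher and 0 lower, with Dscc1 at 0.57 and the origin subunit Orc1 at 0.37.

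**Figure D4:**
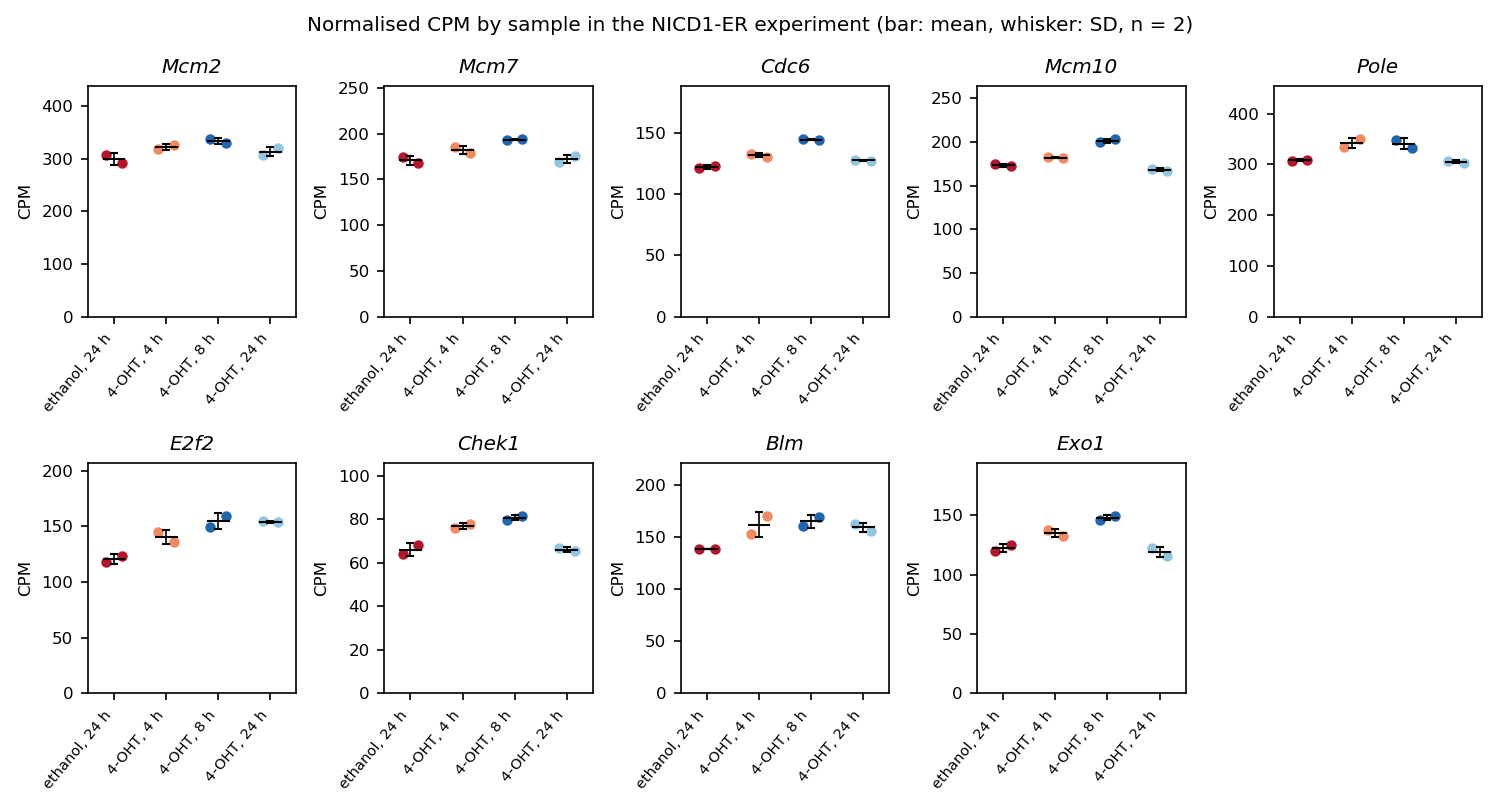
Levels of 9 members in CPM after TMM scaling (vertical axes) with ethanol for 24 h and after 4, 8 and 24 h of 4-OHT (horizontal axes, in order), with 1 panel per gene and 1 point per sample. Cdc6 and Chek1 are highest at 8 h, at 145 and 144 CPM and at 79.7 and 81.5 CPM, whereas E2f2 at 24 h stays at 155 and 154 CPM.

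In the depletion experiment no member passed in the fit without pairing. For lines 2-12 and 2-14 together against the control line, DESeq2 called 3 members (1 higher and 2 lower) and 1287 of 11566 genes. In edgeR 0 of the 45 members were called, with 5 at an unadjusted p under 0.05, against 9.89% of all genes tested. The median member log2 fold change was -0.01, and it ran from -0.16 without replicate 2 of line 2-12 to 0.21 without control replicate 2. The call counts that follow come from a fit with 1 control library, and its calls over all genes are not given. Without control replicate 2, 2 members passed for both lines, 1 for line 2-12 and 2 for line 2-14. Libraries with the same number deviated together, with correlations of 0.433 to 0.608, and with the replicate number as a block 9 members (20%) passed, against 36.8% of all genes tested under that fit. Of these Gins3 at 0.86, Cdt1 at 0.68, E2f2 at 0.41, E2f1 at 0.37, Gins4 at 0.33 and Exo1 at 0.33 were higher, and Rrm2 at -0.47, Rfc2 at -0.44 and Rfc4 at -0.33 lower. Gins3, a GINS subunit, had 29.6 and 38.1 CPM in line 2-12 and 38.0 and 43.1 CPM in line 2-14, against 16.2 and 23.8 CPM in the control line, with no overlap and an adjusted p without the block of 0.050. Rrm2 had 219 and 232 CPM in line 2-12 and 257 and 234 CPM in line 2-14, against 393 and 274 CPM in the control line, where the control libraries differed most from each other.

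Each line alone also gave 0 calls in edgeR without the block. Line 2-12 had 6 members at an unadjusted p under 0.05 and 8 called with the block (3 higher and 5 lower). Over all genes tested edgeR called 6.96% without the block and 31.7% with it. DESeq2 called 0 members and 986 of 11566 genes. Line 2-14 had 3 members at an unadjusted p under 0.05 and 11 called with the block (9 higher and 2 lower). Here edgeR called 5.05% of all genes without the block and 28% with it. DESeq2 called 1 member and 778 of 11566 genes. Between lines 2-12 and 2-14 edgeR and DESeq2 called 0 members, 0 had an unadjusted p under 0.05, and 40 of 45 were below 0. Over all genes edgeR called 0.484% and DESeq2 118 of 11566. Tk1, which stood apart between depleted and control cells with Biocontrol, had 54.9 and 80.3 CPM in line 2-12 and 66.0 and 81.2 CPM in line 2-14, against 46.7 and 75.2 CPM in the control line. These groups overlapped, with a log2 fold change of 0.19.

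Over the 4 experiments that share no library with each other and in which members were called, the calls fell on different members to different extents. The 4 comparisons were NICD1-ER at 8 h, KYOT2 WT against WWAA, GSI, and BioNICD1 in control cells, counted as higher, lower, lower and higher. Cdc6, Chek1, Mcm2, Mcm7 and Pole were called in all 4, 12 members in 3, 21 in 2 and 6 in 1, and Gins4 in none. Each comparison is the one with the most member calls in its experiment. In turn, 20%, 40%, 88.9% and 82.2% of the members were called in them. The same count was not made over all genes, so a call in all 4 does not set these members apart. Of the 40 members lower with GSI, 16 were also lower with KYOT2 WT (40% of the first list and 88.9% of the 18 in the second). Since 88.9% of all 45 members were lower with GSI, the overlap shows nothing beyond that share. The sizes of the changes did not follow each other closely. Across the 45 members Pearson's r was -0.21 between GSI and BioNICD1 in control cells and 0.22 between GSI and KYOT2 WT against WWAA. It was -0.30 between KYOT2 WT against WWAA and BioNICD1, -0.31 between GSI and NICD1-ER at 8 h, and 0.16 between NICD1-ER at 8 h and BioNICD1. These values describe genes that share libraries within a comparison and are not independent replicates. Members with an E2F word in the promoter windows had a median log2 fold change of 0.93 with BioNICD1 in control cells (14 genes) and members with an entry but no word 0.88 (21 genes); with GSI the medians were -0.40 and -0.39, and with KYOT2 WT against WWAA they were -0.27 and -0.18. These differences were not tested.

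**Figure D5:**
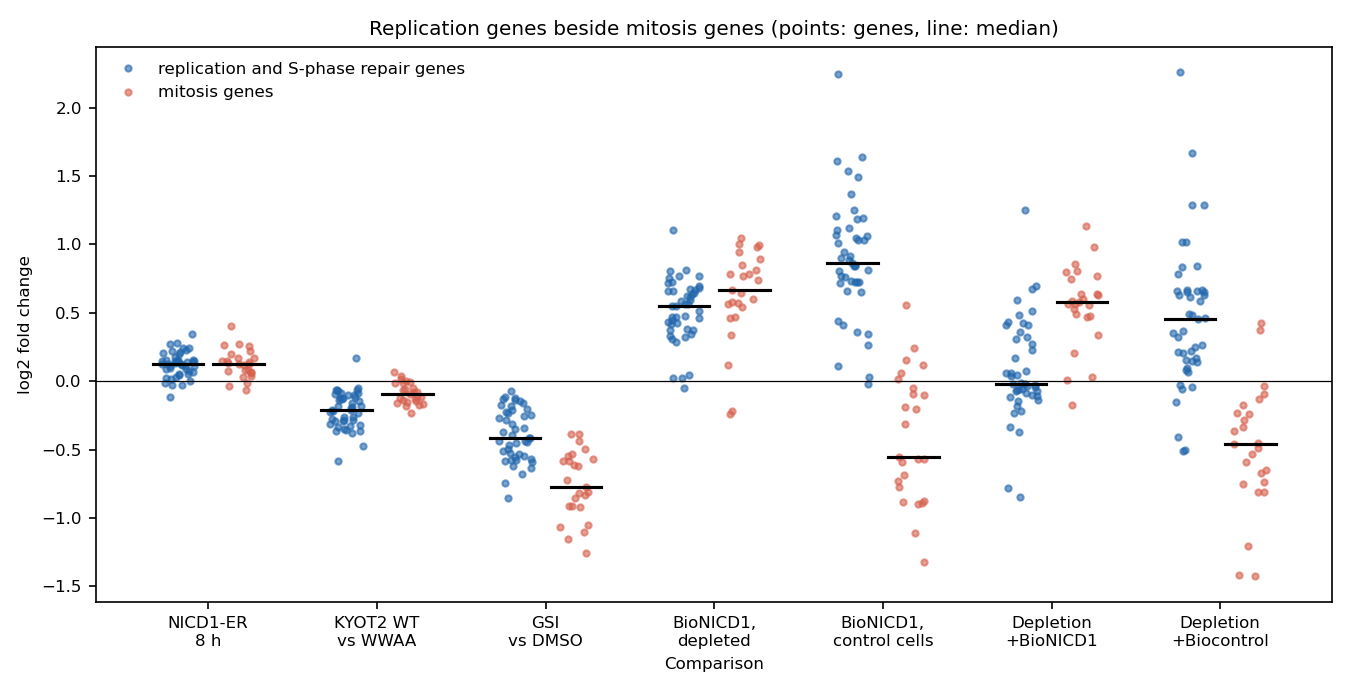
Log2 fold changes (vertical axis) of the 45 members and of 25 mitosis genes, as points with their medians, in 7 comparisons (horizontal axis). The medians have the same sign with GSI (-0.42 for members and -0.78 for mitosis genes) and opposite signs with BioNICD1 in control cells (0.86 and -0.55).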

How the data were processed

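The members and the other gene lists were chosen with earlier results of these data known. The authors deposited raw read counts per gene symbol; per the submitters' processing notes TopHat2 2.1.1, Picard, deepTools and mm9 were used, with no role given, and the counting tool, annotation and strand setting are not given in the sources used here, so reads of genes that overlap on opposite strands cannot be told apart. The deposited region lists were not used here. Of 65 count columns, 41 matched a labelled sample and 24 were not used, 2 of them under 1 shared heading. Each experiment was fitted alone on counts in edgeR 4.0.16 (R 4.3.3) with TMM, filterByExpr and 1 mean per group, over 11150 to 11808 genes, and tested two-sided by quasi-likelihood F-tests with Benjamini-Hochberg adjustment over all genes tested (threshold 0.05, prior count 0.125). The scripts were tested on simulated data. Alternatives were RLE factors, no filter, DESeq2 1.42.0, a replicate block, 2 groups alone, summed libraries, KYOT2 without Rn45s, BioNICD1 without the 2 farthest libraries and each library left out. The main fits held no replicate block. In the depletion experiment every same-numbered pair correlated above 0.1 in their deviations, so the fit with the block is given beside the main one. With 2 libraries per group the deviations of a group mirror each other, so these correlations are not independent of each other. Named were called members with the largest changes and 1 of each role, and at most 4 genes of another list.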

Additional observations from a re-analysis of the deposited data

Results flagged for a closer look

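The change with BioNICD1 differed between depleted and control cells, by the interaction test, for 19 members, so each of these log2 differences (depleted minus control) is listed as worth a second look: Tk1 -1.58, Rmi2 -1.56, Pold1 -1.23, Cdc6 -1.20, Ccne1 -1.07, Cdt1 -1.04, Uhrf1 -0.98, Mcm4 -0.71, Rrm2 -0.70, Fen1 -0.70, Mcm5 -0.67, Mcm7 -0.63, Exo1 -0.60, Rpa2 -0.56, Mcm6 -0.54, Pola2 -0.52, Pole -0.35, Rfc4 0.64 and Brca2 0.56. Leaving out each of the 12 libraries in turn left 14 to 23 such members, and the calls over all genes in these fits are not given. The mitosis genes had 20 of 25 differences called, all of them above 0, with a median of 1.02.

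The change with 4-OHT differed between 24 h and 4 h, by a test of the difference, for 4 members, with log2 differences of -0.21 for Chek1, -0.20 for Cdt1, -0.19 for Exo1 and -0.16 for Pole. DESeq2 called 0 of these, and 481 of 11808 genes. With the 2 libraries of 24 h summed, that group holds 1 sample, and the member median was -0.055, against -0.058 with them apart.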

How the results depend on the processing

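Of 3700 values of single members under alternatives, 3218 kept their direction and side of the threshold, 406 no longer passed, 61 newly passed and 15 changed sign. With RLE size factors 1 member passed for both depleted lines (1171 of 11566 genes tested) and 1 for NICD1-ER at 24 h (1270 of 11808). Without the low-count filter 5, 4 and 3 passed for both depleted lines, line 2-12 and line 2-14, 3 for KYOT2 WT against GFP and 1 for WWAA against GFP. Over all genes, 2671, 2126 and 1870 of 17571 then passed for the depletion comparisons, against 1144, 805 and 584 of 11566 with the filter. For KYOT2 WT and WWAA against GFP, 262 and 66 of 17049 genes passed, against 99 and 10 of 11150 with the filter. DESeq2 called 3 for both lines, 1 for line 2-14, 0, 1 and 1 for NICD1-ER at 4, 8 and 24 h, 0 for 24 h against 4 h, 1 for WWAA against GFP and 24 for GSI. For 24 h against 4 h it called 481 of 11808 genes. With the replicate block 9, 8 and 11 members passed for both lines, line 2-12 and line 2-14. It gave 5 at 4 h of 4-OHT (1223 of 11870 genes tested), 5 for KYOT2 WT and 3 for WWAA against GFP, and 24 for WT against WWAA. In these KYOT2 comparisons 320, 67 and 567 of 11150 genes passed with the block. In no other comparison did the block move the member count by over 1.5 times. The KYOT2 libraries correlated with their own number at 0.035 to 0.408, so not every pair was above 0.1 and the numbers were not taken to pair. With every 4-OHT library kept apart 4 members passed at 4 h, as did 935 of 11870 genes tested. Summing the libraries of 24 h was an alternative chosen after seeing the data and leaves 1 sample in that group. The member median was then 0.060 at 4 h, -0.006 at 24 h and -0.055 for 24 h against 4 h. With 2 groups alone 1 passed at 4 h, 2 for KYOT2 WT against GFP, 11 for WT against WWAA and 0 for BioNICD1 in depleted cells. Over all genes, 565 of 11534, 161 of 11046, 112 of 11023 and 4 of 10830 passed in these fits. Without the 2 farthest libraries the member median for depletion with Biocontrol was 0.38.

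With each library left out in turn, calls ranged from 0 to 2 for both depleted lines, 0 to 1 for line 2-12, 0 to 2 for line 2-14, 0 to 3, 5 to 11 and 1 to 2 for 4, 8 and 24 h of 4-OHT, 0 to 4 for 24 h against 4 h, 0 to 4 for KYOT2 WT against GFP, 7 to 18 for WT against WWAA, 14 to 34 for BioNICD1 in depleted cells and 9 to 18 for depletion with BioNICD1. A group left with 1 library was assumed to vary like the others. Calls over all genes in these fits are not given, so the ranges are not shown to be particular to the members. Member medians ranged from -0.16 to 0.21 for both depleted lines, -0.31 to 0.18 for line 2-12, -0.13 to 0.25 for line 2-14, -0.40 to 0.064 for line 2-12 against 2-14, 0.11 to 0.15 at 8 h, 0.10 to 0.14 for WWAA against GFP, -0.43 to -0.37 with GSI, 0.47 to 0.57 for BioNICD1 in depleted cells, 0.40 to 0.49 for depletion with Biocontrol and -0.020 to 0.022 with BioNICD1. The values that changed sign were not called with all libraries: Tk1 from -0.086 to 0.60 and Exo1 from -0.0089 to 0.79 for both depleted lines, Rfc1 from -0.088 to 0.039 and Brca2 from -0.013 to 0.076 for BioNICD1 in control cells, and Cdt1 from -0.20 to 0.24, Pold1 from -0.21 to 0.23 and Rmi2 from -0.21 to 0.22 in depleted cells, with Rmi2 at -0.0574 without the 2 farthest libraries in all 4 groups and -0.0572 in 2 groups alone. The causes were not tested. Depth limited the lowest member most: Rmi2 had 3.04 CPM in its lowest library, where 3 counts correspond to at most 0.370 CPM.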

Other observations

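Tk1, read as a level, stood at different heights in the control libraries of the 5 experiments. Control cells with Biocontrol had 5.64 to 7.66 CPM, GFP cells of the KYOT2 experiment 18.7 to 22.4 CPM, the control line of the depletion experiment 46.7 and 75.2 CPM, DMSO cells 68.6 and 73.8 CPM, and ethanol cells 78.0 to 86.4 CPM. The experiments were scaled and fitted apart, so no difference between these levels was tested.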
